A study of Mus musculus with 20 samples.

Results

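In fasted mouse liver, 1501 regions carried the histone mark H3K4me1 in every library and touched no region of either acetylation mark measured. They were chosen from the 103014 consensus intervals that the authors deposited for H3K4me1. An interval was taken when each of the 8 H3K4me1 peak lists had a peak sharing at least 1 base with it, and when it shared no base with any of the 65776 H3K27ac or 46568 H3K9ac consensus intervals. The regions were 1.46% of all H3K4me1 consensus intervals, 7.69% of the 19526 called in all 8 libraries and 3.58% of the 41938 without acetylation. The choice used the calls of all 3 marks, so the presence of H3K4me1, its level and the absence of acetylation are given below as descriptions, without tests.

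Monomethylation of lysine 4 of histone H3, H3K4me1, is laid down mainly by the methyltransferases Kmt2c and Kmt2d and marks enhancers, the flanks of promoters and stretches of gene bodies. Acetylation of lysine 27 or lysine 9 of the same histone, H3K27ac and H3K9ac, is found at active enhancers and promoters. Enhancers with H3K4me1 and no H3K27ac are often called primed, and poised where the Polycomb mark H3K27me3 is also present; that mark was not analysed here. In liver, forkhead factors of the Foxa family are known for binding sites that later gain H3K4me1 and then acetylation.

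Chromatin immunoprecipitation and sequencing (ChIP-seq) was done on flash-frozen livers of 9-week-old male C57BL/6 mice, all fasted for 24 hours after standard chow. The genotypes were wild type (WT), Cpt2 L-/- (Cpt2 KO), which lacks the mitochondrial carnitine palmitoyltransferase Cpt2 in the liver, Ppara -/- (Ppara KO), which lacks the fatty acid receptor Ppara in the whole body, and Cpt2 L-/- ;Ppara -/- (DKO). H3K4me1 and H3K27ac were each measured in 2 livers of each genotype, and H3K9ac in 1 WT and 1 Cpt2 KO liver without replication, so absence of H3K9ac rests on 2 libraries that include no Ppara-null liver. The Cre line behind the liver deletion is not given in the sources used here, and in whole liver a mark in fewer cells and a weaker mark in all cells cannot be told apart.

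The lists held 61189 to 72151 H3K4me1 peaks per library. Sequencing depth is unknown, as the peak lists carry no read counts. Near Ppara, 2 of 36 H3K4me1 intervals were called only in the 4 Ppara-intact livers and 0 only in the null ones, and of 26 H3K27ac intervals 1 was called only in intact and 1 only in null livers. Near Cpt2, 1 of 5 H3K27ac intervals was called only in the 4 Cpt2-intact livers and 0 only in the null ones, and 0 of 7 H3K4me1 intervals in either alone; none of the 1501 regions lay near either gene. As a check of the tissue, 12 of 12 hepatocyte markers had an H3K27ac interval of all 8 libraries in or within 1000 bases of the gene, as did 11 of 12 markers of sinusoidal endothelium, 3 of 10 of Kupffer cells, 2 of 12 of stellate cells, 1 of 8 of cholangiocytes and 1 of 10 of lymphocytes, beside 45.4% of all protein-coding genes. The smallest peak of a list was 196 to 200 bases in 4 H3K4me1 libraries (both WT, Cpt2 KO replicate 2 and Ppara KO replicate 1) and 210 to 221 bases in the other 4 (Cpt2 KO replicate 1, Ppara KO replicate 2 and both DKO). Both WT libraries stood on one side of this split and both DKO libraries on the other, so width and genotype cannot be told apart in the comparison of DKO with WT.

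Of the 1501 regions, 38 contained a whole promoter window, here 250 bases before to 50 after a transcription start in RefSeq (assembly GRCm38.p6, which corresponds to mm10). These were 43 windows of 41 genes, 21 of the windows belonging to protein-coding genes. The windows below come from regions at genes of developmental transcription factors, and CpG dinucleotides are in capitals because the density of CpG is what sets these promoters apart from most others in the regions. Lhx1os is the divergent antisense neighbour of Lhx1, a LIM homeobox factor of kidney and head formation, and both starts lay in 1 region. Isl2 is a LIM homeobox factor of motor neurons, Ovol2 a zinc finger repressor in epithelia, Sox21 an HMG box factor of the nervous system and Neurog2 a basic helix-loop-helix factor that drives the making of neurons. Lhx1os and Isl2 are among the 6 windows with the highest mean H3K4me1 fold of their region, the rule for printing; the other 3 were chosen after their values were seen.
Lhx1os (chr11:84525410-84525709, plus strand): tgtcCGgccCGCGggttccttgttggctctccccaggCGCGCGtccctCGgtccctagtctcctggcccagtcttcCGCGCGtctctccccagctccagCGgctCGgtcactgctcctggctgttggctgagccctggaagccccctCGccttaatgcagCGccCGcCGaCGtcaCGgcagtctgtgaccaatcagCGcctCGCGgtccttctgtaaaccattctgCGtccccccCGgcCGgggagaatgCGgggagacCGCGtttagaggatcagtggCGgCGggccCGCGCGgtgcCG
Isl2 (chr9:55540899-55541198, plus strand): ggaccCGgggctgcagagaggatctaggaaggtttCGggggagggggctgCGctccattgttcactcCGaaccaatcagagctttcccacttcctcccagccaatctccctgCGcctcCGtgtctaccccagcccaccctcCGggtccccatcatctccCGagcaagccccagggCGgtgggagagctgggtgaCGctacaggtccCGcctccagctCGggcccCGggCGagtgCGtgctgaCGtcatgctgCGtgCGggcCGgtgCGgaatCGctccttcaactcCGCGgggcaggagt
Ovol2 (chr2:144331313-144331612, minus strand): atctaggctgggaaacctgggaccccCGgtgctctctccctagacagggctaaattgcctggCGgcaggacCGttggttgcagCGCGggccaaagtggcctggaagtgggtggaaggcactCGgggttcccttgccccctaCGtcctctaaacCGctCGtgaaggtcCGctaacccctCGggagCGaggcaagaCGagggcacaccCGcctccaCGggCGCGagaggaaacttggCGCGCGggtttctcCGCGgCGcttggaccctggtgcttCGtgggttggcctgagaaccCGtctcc
Sox21 (chr14:118236981-118237280, minus strand): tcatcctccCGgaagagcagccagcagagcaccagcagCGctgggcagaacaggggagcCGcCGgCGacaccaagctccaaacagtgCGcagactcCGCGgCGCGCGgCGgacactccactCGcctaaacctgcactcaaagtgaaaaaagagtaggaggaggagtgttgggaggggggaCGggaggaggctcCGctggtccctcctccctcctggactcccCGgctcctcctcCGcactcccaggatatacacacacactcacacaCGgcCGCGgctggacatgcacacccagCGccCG
Neurog2 (chr3:127632886-127633185, plus strand): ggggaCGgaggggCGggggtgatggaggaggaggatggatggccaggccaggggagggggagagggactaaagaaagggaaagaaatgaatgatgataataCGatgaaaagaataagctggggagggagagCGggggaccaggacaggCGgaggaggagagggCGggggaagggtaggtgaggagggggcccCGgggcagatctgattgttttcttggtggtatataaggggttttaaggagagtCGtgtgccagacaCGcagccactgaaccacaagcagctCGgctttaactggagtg

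Counted over 300 bases, Lhx1os held 33 CpG dinucleotides, 0.93 of the number its base composition predicts (observed over expected), with 69.3% G and C. Isl2 held 23 (0.68), Ovol2 25 (0.77) and Sox21 22 (0.69), and each of these 3 had over 65% G and C. Neurog2 held 10 (0.57), just under the limit of 0.6 that, with at least 50% G and C, defined a CpG-rich window here. GC boxes (GGGCGG on either strand) were found in the Isl2 and Neurog2 windows, and CCAAT boxes (CCAAT on either strand) in those of Lhx1os and Isl2.

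The other 4 windows printed by the rule belong to RefSeq transcripts that are not protein-coding, and 3 of them were poor in CpG.
Gm14009 (chr2:128169486-128169785, plus strand): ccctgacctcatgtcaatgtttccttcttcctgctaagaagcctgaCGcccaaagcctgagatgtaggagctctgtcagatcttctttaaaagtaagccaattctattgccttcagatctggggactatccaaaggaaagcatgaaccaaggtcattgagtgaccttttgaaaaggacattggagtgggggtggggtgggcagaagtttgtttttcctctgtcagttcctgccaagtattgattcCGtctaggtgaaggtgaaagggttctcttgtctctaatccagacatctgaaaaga
Gm33554 (chr6:100195753-100196052, plus strand): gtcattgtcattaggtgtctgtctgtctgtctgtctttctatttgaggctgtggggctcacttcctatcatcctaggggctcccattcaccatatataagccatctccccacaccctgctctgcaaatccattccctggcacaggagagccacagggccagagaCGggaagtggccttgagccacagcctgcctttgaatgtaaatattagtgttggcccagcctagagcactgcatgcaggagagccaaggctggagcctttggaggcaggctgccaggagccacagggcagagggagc
Gm15348 (chr8:12719078-12719377, minus strand): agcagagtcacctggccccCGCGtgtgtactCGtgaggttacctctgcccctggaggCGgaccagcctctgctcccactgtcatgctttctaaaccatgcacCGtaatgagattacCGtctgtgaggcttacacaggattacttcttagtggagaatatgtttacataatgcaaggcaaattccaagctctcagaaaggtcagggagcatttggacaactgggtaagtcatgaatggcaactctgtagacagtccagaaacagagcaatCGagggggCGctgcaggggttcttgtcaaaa
Gm44867 (chr7:116289079-116289378, minus strand): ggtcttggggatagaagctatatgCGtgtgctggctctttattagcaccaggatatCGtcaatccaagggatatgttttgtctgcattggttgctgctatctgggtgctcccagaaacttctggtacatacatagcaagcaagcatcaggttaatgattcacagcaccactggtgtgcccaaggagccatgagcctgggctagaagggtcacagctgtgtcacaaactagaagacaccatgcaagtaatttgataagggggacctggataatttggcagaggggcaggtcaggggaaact

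Gm14009 held 2 CpG dinucleotides (0.13 of the predicted number), Gm33554 held 1 (0.04) and Gm44867 held 2 (0.12). Gm15348 held 8 (0.42), near the median of the windows inside the regions. The nuclear receptor half-site AGGTCA, the element that Ppara and other receptors read in pairs, was present on one strand or the other in Gm14009, Gm15348 and Gm44867. Gm15348 also held the Foxa core TGTTTAC. A match of letters is not a binding site.

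Over all 43 windows, 12 (27.9%) were CpG-rich, beside 17.9% of the 1102 windows inside stable H3K4me1 intervals that touch acetylation and 33.4% of the 32817 windows in the table. The CpG-rich windows belonged to Lhx1 and Lhx1os, Isl2, Ovol2, Sox21 and Gm4675, which share 1 region, Htra1, Efhd1, Erfe, Pantr2, Trim2 and Gm30234; 1700054A03Rik fell just below 50% G and C. The median window held 8 CpG dinucleotides at 0.32 of the predicted number, and 3 windows held none. AGGTCA was present in 27.9% of the 43 windows, 21.5% of those inside acetylated intervals and 16.3% of all. TATAAA, the TATA box, was in 2.33%, 12.6% and 13.6%, GGGCGG in 34.9%, 28.1% and 35.6%, CCAAT in 46.5%, 32.3% and 37.4%, and CACGTG, the E-box of clock factors, in 9.30%, 6.08% and 7.15%. TGTTTAC was in 2.33%, 4.26% and 3.65%, the C/EBP core TTGCNNAA in 14.0%, 13.2% and 10.8%, and the Hnf4 core CAAAGTCCA in 2.33%, 0.91% and 0.48%. Each 2.33% here is 1 window of 43, and the 9.30% of CACGTG is 4 windows, too few to set these shares apart. All were searched on both strands, and some windows overlap, as those of Lhx1 and Lhx1os do.

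**Figure D1:**
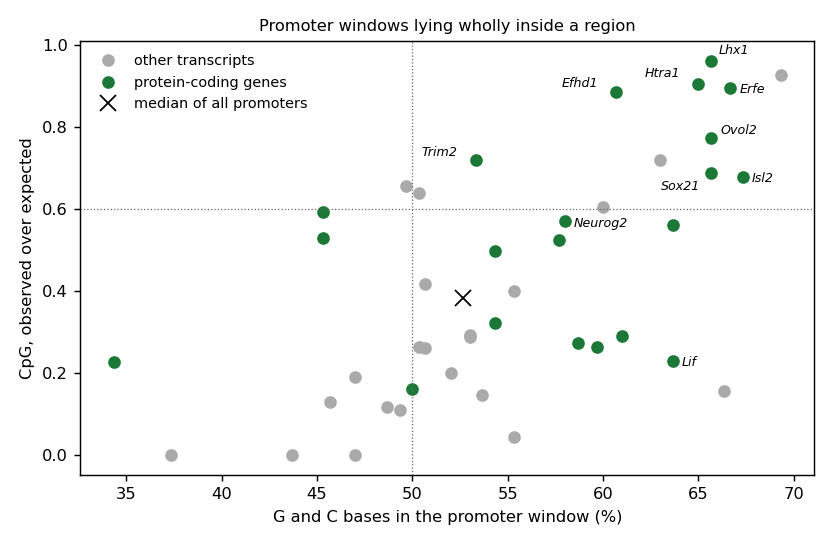
CpG observed over expected (vertical axis) against the percentage of G and C bases (horizontal axis) for the 43 RefSeq promoter windows that lie wholly inside a stable H3K4me1 region without acetylation; green points are protein-coding genes, grey points other transcripts, the cross the median of all 32817 windows, and dotted lines the limits of 0.6 and 50%. The 12 windows at the upper right include Lhx1, Isl2, Ovol2 and Sox21, and Neurog2 sits just under the line at 0.57.

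MicroRNA hairpins were a second kind of sequence in the regions. Of 1005 hairpins in the RefSeq table, 81 touched a stable H3K4me1 interval and 7 touched 5 of the 1501 regions. The region chr3:88214536-88215672 held 3 of them: Mir9-1, a microRNA of neural progenitors, its antisense hairpin Gm25641 (miR-9b) and Mir3093. The mature sequences are shown because they place a neural microRNA locus among the regions; seeds (bases 2 to 8) are in capitals. They were chosen after their values were seen.
miR-9-5p (chr3:88215613-88215635, plus strand): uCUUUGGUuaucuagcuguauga
miR-9-3p (chr3:88215652-88215673, plus strand): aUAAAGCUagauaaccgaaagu
miR-9b-5p (chr3:88215650-88215670, minus strand): uUCGGUUAucuagcuuuauga
miR-9b-3p (chr3:88215613-88215633, minus strand): aUACAGCUagauaaccaaaga
miR-3093-5p (chr3:88215186-88215207, plus strand): cGCACCCCgcggagcucacacu
miR-3093-3p (chr3:88215226-88215247, plus strand): uGUGGACAccgugggagguugg

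No seed was shared among the 12 mature sequences of the 7 hairpins (12 distinct seeds). The last base of miR-9-3p lies 1 base beyond the end of the region. H3K4me1 folds of this region were 6.82 and 9.01 (WT), 5.49 and 11.6 (Cpt2 KO), 8.70 and 4.60 (Ppara KO) and 4.2 and 5.30 (DKO). The 4 libraries with the narrower smallest peaks (6.82, 9.01, 11.6 and 8.70) lay above the other 4 (5.49, 4.60, 4.2 and 5.30), and the nearest acetylated interval was 38601 bases away. The other 4 regions with a hairpin held Mir3103 (mean fold 5.31), Mir6913 (6.00), Mir12181 (7.71) and Gm51292 (4.77).

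Acetylation was rarely missing where H3K4me1 was called in every liver. Of intervals called in a single library, 64.9% touched no acetylated interval. The share was 54.7% with calls in 2 libraries, 46.9% in 3, 35.2% in 4, 29.0% in 5, 23.5% in 6 and 19.6% in 7, and 7.69% in 8. Width rose along the same order, from a median of 257 bases among unacetylated intervals of 1 library to 1359 bases among the 1501 regions, and its part in the falling share was not tested. Among the other stable intervals, 10889 touched both acetylation marks, 6506 touched H3K27ac only and 630 touched H3K9ac only. None of the 8 H3K27ac lists and neither H3K9ac list had a peak touching any of the 1501 regions, a description of the choice rather than a finding.

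**Figure D2:**
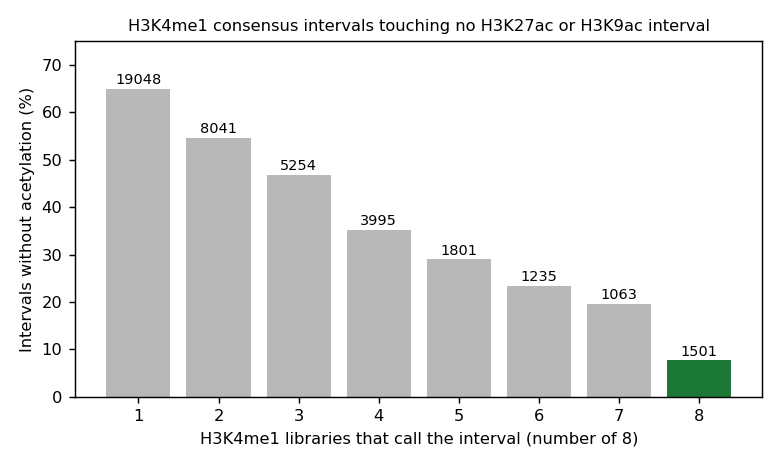
Share of H3K4me1 consensus intervals that touch no H3K27ac or H3K9ac interval (vertical axis, percent), by the number of H3K4me1 libraries that call the interval (horizontal axis); numbers above the bars count the unacetylated intervals. The bar for 8 libraries, in green, holds the 1501 regions at 7.69%, against 64.9% for intervals called in 1 library.

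The edge of the rule was narrow on both sides. The region nearest to Ywhaz, a 14-3-3 adaptor protein 43409 bases away, lay 7 bases from an acetylated interval, the one 107126 bases from Ogfrl1 lay 29 bases away and the one in Rufy3 lay 44 bases away. Just outside, stable intervals in Snrnp70, Nsd1 and Mapre2 shared 3, 9 and 10 bases with an acetylated interval. Their mean H3K4me1 folds were 5.96, 5.84 and 5.76 inside the rule and 7.98, 7.01 and 5.98 outside it.

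Most of the regions stood apart from acetylated chromatin by kilobases. The median distance to the nearest acetylated interval was 4569 bases, with the 25th to 75th percentile from 1110 to 14075 bases and the farthest at 805486 bases. An acetylated interval lay within 1000 bases of 344 regions (22.9%), within 5000 of 784 (52.2%) and within 100000 of 1464 (97.5%). The 40437 unacetylated intervals called in 1 to 7 libraries lay closer, at a median of 2402 bases, with 33.4% within 1000 bases. Regions also lay near each other: 318 (21.2%) had another within 10000 bases.

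**Figure D3:**
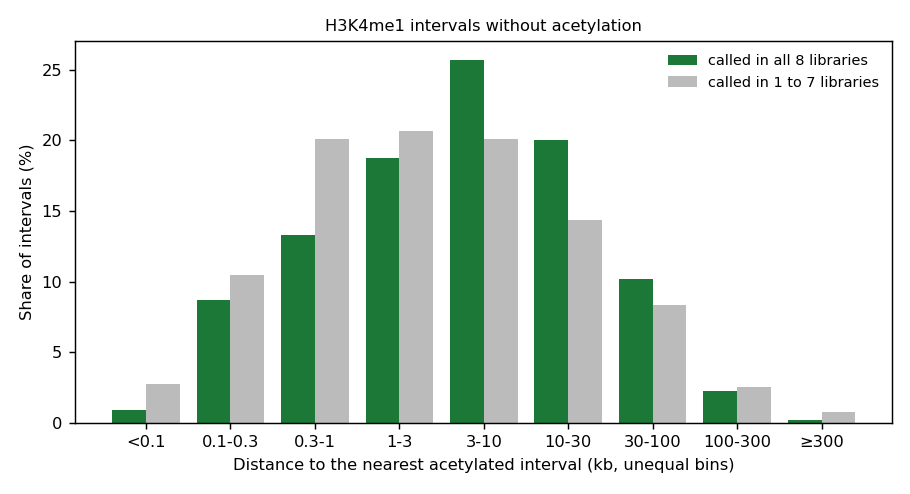
Share of intervals (vertical axis, percent) by distance from the nearest H3K27ac or H3K9ac consensus interval (horizontal axis, in kb, bins of unequal width) for the 1501 regions called in all 8 libraries (green) and the 40437 unacetylated H3K4me1 intervals called in 1 to 7 libraries (grey). The tallest green bar, 25.7% of the regions, is at 3 to 10 kb, and 22.9% of the regions against 33.4% of the others lie within 1 kb.

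In form, the regions were shorter and lower than stable intervals that touch acetylation. Their median width was 1359 bases (25th to 75th percentile 964 to 1932, range 340 to 6708) against 1991 bases, and together they covered 2.31 Mb against 46.2 Mb. Fold enrichment is the authors' ratio of ChIP signal over local background at a peak, and the fold of a region is that of its highest peak in a library. Mean fold over the 8 libraries had a median of 6.55 (25th to 75th percentile 5.81 to 7.30) against 7.53. At matched widths of 964 to 1932 bases the medians were 6.4 (751 regions) and 6.84 (6325 intervals), a smaller gap than without matching. Spread between libraries was alike, with a median SD of log2 fold of 0.29 and 0.31.

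In position, the regions lay inside genes about as often as other stable intervals, but away from starts. The middle of 1072 regions (71.4%) fell in a protein-coding gene body, against 68.4% of acetylated stable intervals; the RefSeq table used gives no exons, so exon and intron are not told apart. A start lay within 1000 bases of 114 regions (7.59%) against 22.3%. The median distance to a start was 16326 bases, near the 17769.5 bases of stable intervals with H3K27ac only and far from the 4367.5 of those with both acetylation marks. On the X chromosome 3 of 81 stable intervals (3.70%) were of this kind, and on the autosomes the share ran from 5.64% on chromosome 4 to 10.1% on chromosome 14.

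The regions were spread over 1131 nearest protein-coding genes, 895 of them with a single region and 28 with 4 or more. The genes with the most were Ankrd11, a chromatin regulator, and Pard3, a scaffold of cell polarity, with 8 each. Foxn3, a forkhead repressor, and Ptprg, a receptor tyrosine phosphatase, had 7 each; Arid1b, a subunit of SWI/SNF remodelling complexes, and Fndc3b had 6 each. Gadd45g, a stress-induced gene, and Gng12, a G protein subunit, had 5 each, as did Magi1, Sppl3 and Stt3b. The gene bodies of Pard3 and Ptprg span 549 and 689 kb, whereas the 5 regions of Gadd45g all lay outside its gene body of 1.80 kb. In Ankrd11, mean fold ran from 5.09 to 8.03 over its 8 regions, all inside the gene, which held 19 stable intervals in all.

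The genes of liver function that the lists named had few or no such regions. Of the 90 stable H3K4me1 intervals assigned to 32 Ppara target genes, which include the fatty acid oxidation genes Acadm and Hadha, 0 were unacetylated, and of the 38 assigned to hepatocyte markers such as Alb and Apob, 0 were. The share over all genes was 7.69%. For the 19 hepatocyte transcription factors it was 6 of 164 (3.66%), by nearest gene those of Onecut1, Foxa2 and Nr5a2. Only the region of Nr5a2 lay inside its gene. The regions nearest to Foxa2 lay 81267 and 114078 bases away, and those nearest to Onecut1 59762 to 65506 bases away. Endothelial markers had 0 of 18, Kupffer cell markers 0 of 1 and stellate cell markers 0 of 2. Since acetylation chose the regions, these counts describe the choice and test nothing.

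Larger shares, likewise a description, were held by developmental regulators and by cholangiocyte and lymphocyte markers. Fewer of their genes had stable H3K27ac nearby than the 45.4% of all genes. Kupffer and stellate cell markers were also under that share (30% and 16.7%), yet 0 of 1 and 0 of 2 of their stable intervals were unacetylated. Developmental regulators, a list of 60 homeobox, Sox, Gata and signalling genes, had 8 of 32 stable intervals (25%) without acetylation, and 15 of its 60 genes had stable H3K27ac nearby. By nearest gene these regions belonged to Pax6, Nkx2-5, Pax2, Sox2, Olig2 and Neurog2, the farthest lying 11594 bases from Sox2. Cholangiocyte markers had 7 of 12 (58.3%), among them regions assigned to Sox9 and Epcam, genes of the bile duct lineage. The Epcam region lay 68777 bases from the gene, and those of Sox9 30209 to 222195 bases from it. Of the 8 genes, 1 had stable H3K27ac in or near it, and the part of bile duct cells in these counts was not tested. Lymphocyte markers had 1 of 2, inside Cd247, the zeta chain of the T cell receptor.

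The region in the Pax6 gene, a paired box factor of eye and pancreas, at chr2:105673339-105675804 had folds of 12 and 11.3 (WT), 6.32 and 11.6 (Cpt2 KO), 10.5 and 8.0 (Ppara KO) and 6.4 and 9.09 (DKO). Acetylation was remote there, with the nearest interval 228156 bases away. The region holding the Neurog2 promoter (chr3:127632607-127634575), 78896 bases from acetylation, had folds of 8.40 and 9.60 (WT), 8.24 and 10.2 (Cpt2 KO), 11.6 and 8.65 (Ppara KO) and 4.8 and 5.80 (DKO). Both DKO libraries were the lowest of the 8 at Neurog2. Beside Olig2, an oligodendrocyte and motor neuron factor (chr16:91232384-91233401), folds were 8.46 and 8.73 (WT), 9.75 and 6.35 (Cpt2 KO), 7.88 and 10.0 (Ppara KO) and 9.75 and 10.6 (DKO), and both DKO livers lay above both WT livers, with the single knockouts from 6.35 to 10.0.

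Among liver factors, 3 regions lay 59762 to 65506 bases from Onecut1, a cut homeobox factor of hepatocytes and bile ducts, and 2 of them were neighbours at chr9:74800435-74801214 and chr9:74801274-74803043. The former had folds of 6.71 and 7.53 (WT), 9.56 and 6.61 (Cpt2 KO), 6.77 and 11 (Ppara KO) and 8.58 and 5.78 (DKO), and the genotypes overlapped. Mean fold was 7.44 at the latter. The region in Nr5a2 (chr1:136874279-136876413), a nuclear receptor of bile acid and steroid metabolism, had a mean fold of 7.58. The highest region near Sox9, 222195 bases from the gene, had 6.11. The region in Cd247 had 7.21.

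The 10 regions with the highest mean fold reached 10.6 to 12.8, well above the median region. The highest (chr6:135541471-135544034) lay 159580 bases from Emp1, an epithelial membrane protein, with folds of 17.7 and 16.1 (WT), 14.6 and 15.5 (Cpt2 KO), 13.9 and 11.3 (Ppara KO) and 9.97 and 7.32 (DKO). WT was highest and DKO lowest there, but neither main effect passed the adjusted threshold (limma, adjusted p = 0.154 for Ppara and 0.529 for Cpt2 at Emp1). In Tle3, a Groucho corepressor (chr9:61386645-61389270), folds were 12.8 and 13 (WT), 10.9 and 12.4 (Cpt2 KO), 14.0 and 11.9 (Ppara KO) and 13.9 and 10.9 (DKO), and the genotypes overlapped.

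The others in order were near or in Uncx, a homeobox factor of the somites (mean fold 11.9), Arntl, the clock factor Bmal1 (11.6), Asap2, an Arf GTPase-activating protein (11.4), Pdcl3 (11.1), Rras2, a Ras-related GTPase (11.1), Tbc1d9b (11), Nccrp1 (10.9) and Yap1, the coactivator of the Hippo pathway (10.6). In Arntl, folds were 11.3 and 16.1 (WT), 10.6 and 9.25 (Cpt2 KO), 15.9 and 8.67 (Ppara KO) and 11.8 and 11.5 (DKO). Hivep3, with 6708 bases, had the widest region, followed by Trpm5 (6347 bases), a taste cell cation channel, Asap2 (5960 bases) and Nkx1-1 (5729 bases), a homeobox gene 30888 bases away.

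Regions differed in how steady they were from liver to liver. The steadiest lay in Abl1, a tyrosine kinase (chr2:31748668-31750704), where the 8 folds ran only from 7.95 to 8.86, with an SD of log2 fold of 0.048. Next were Fbxo34, at 5.73 to 7.04, and Prpf6, a splicing factor, at 6.00 to 7.28. The least steady lay in Chrna4, a nicotinic acetylcholine receptor subunit (chr2:181040255-181044243, SD 0.69), with folds of 15.0 and 15.3 (WT), 4.25 and 9.28 (Cpt2 KO), 6.67 and 5.52 (Ppara KO) and 7.01 and 5.50 (DKO). Both WT livers stood above all 6 others there. A region in Isl2 (chr9:55543076-55545238, SD 0.68) had 10.6 and 13.9 (WT), 6.00 and 15.7 (Cpt2 KO), 12.2 and 5.0 (Ppara KO) and 6.56 and 5.10 (DKO), so that replicates of 1 genotype fell far apart.

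Such a spread within genotypes went with the width of the smallest peak at several regions. At the region of Lhx1 (chr11:84522732-84526165), folds were 12.1 and 13.2 (WT), 6.18 and 15.4 (Cpt2 KO), 11.5 and 8.0 (Ppara KO) and 6.21 and 7.37 (DKO). The 4 libraries with smallest peaks of 196 to 200 bases were all above the 4 with 210 to 221 bases. At the Isl2 promoter region (chr9:55540780-55542989) the former 4 had 12.5, 14.3, 11.8 and 8.68 and the latter 5.20, 6.80, 6.46 and 8.65, again without overlap, though by a hair between 8.68 and 8.65. Over the 10 regions holding a CpG-rich window, the median difference between these sets of libraries was 0.48 on the log2 scale, and 4 (40.0%) did not overlap. It was 0.13 over the 28 regions holding another window, 7 of them (25%) not overlapping in this direction and 1 in the other, and 0.40 over the 8 regions at developmental regulators, with 2 (25%) and 1. Over all 1501 regions it was 0.05, with 146 (9.73%) not overlapping in this direction, beside a background of 11.2% of all stable intervals, and 107 (7.13%) in the other, beside 11.6%. This comparison was added after the values were seen, and the part of peak width in it was not tested.

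Library by library, the median fold of the regions was 6.63 and 6.69 (WT), 6.53 and 6.50 (Cpt2 KO), 6.50 and 6.50 (Ppara KO) and 6.35 and 6.50 (DKO), while stable intervals touching acetylation had medians from 7.40 to 7.73. Both WT libraries lay above the other 6, which reached at most 6.53, and the lowest was DKO replicate 1, which was also lowest at intervals touching acetylation (7.40). With each library centred on its median over stable intervals, WT was still highest (−0.172 and −0.153 on the log2 scale). The lowest was then DKO replicate 2 (−0.226), with DKO replicate 1 at −0.203. A region held 1.46 to 1.53 peaks on average in the 4 libraries with the narrower smallest peak and 1.29 to 1.32 in the other 4.

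**Figure D4:**
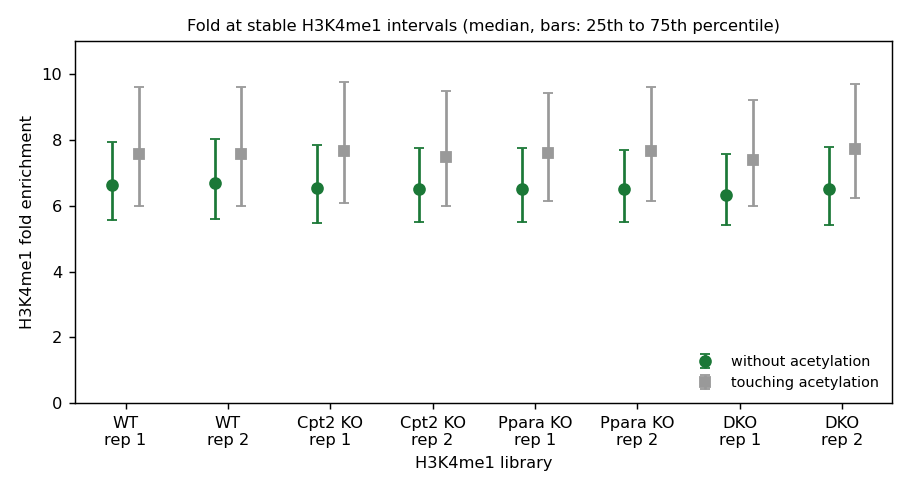
H3K4me1 fold enrichment (vertical axis) in each of the 8 libraries (horizontal axis) for the 1501 stable regions without acetylation (green circles) and the 18025 stable intervals touching acetylation (grey squares); markers are medians over intervals and bars reach from the 25th to the 75th percentile. Green medians sit between 6.35 and 6.69, highest in both WT libraries, below grey medians of 7.40 to 7.73.

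The genotype contrasts asked whether loss of Ppara, of Cpt2 or of both moved the level of H3K4me1 at these regions. No region passed the threshold of adjusted p under 0.05 (limma on log2 folds, Benjamini-Hochberg over all 19526 stable intervals). For Ppara-null against Ppara-intact livers (4 against 4), 0 of 1501 rose and 0 fell, beside a background of 0.0461% higher and 0.0819% lower. At unadjusted p under 0.05, 66 were higher and 84 lower, 4.40% and 5.60% of the regions against 6.92% and 7.01% of all stable intervals. Median differences were −0.03 over the regions and −0.01 over all, on the log2 scale, with a median standard error of 0.20. Because a call in all 8 libraries was required, a region whose H3K4me1 was lost altogether in a genotype could not be among them.

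For Cpt2-null against Cpt2-intact livers, 0 passed either way (background 0% and 0%), and 54 were higher and 65 lower at unadjusted p under 0.05, which is 3.6% and 4.33% against 5.06% and 4.75%. For DKO against WT (2 livers against 2), 0 passed (background 0.0973% higher and 0.0358% lower), with 83 higher (5.53% against 9.82%) and 123 lower (8.19% against 9.60%) at unadjusted p. The interaction, which asks whether the Cpt2 difference depends on Ppara, had 0 passing (background 0% and 0%) and 36 and 20 at unadjusted p, or 2.40% and 1.33% against 1.57% and 1.33%. Median differences over the regions were −0.02 for Cpt2, −0.06 for DKO against WT and 0.04 for the interaction.

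Complete separation of the groups was counted for each contrast. Centred folds of all 4 Ppara-null livers lay above all 4 Ppara-intact livers at 39 regions (2.60%, background 2.71%) and below at 45 (3.00%, background 3.20%). For Cpt2 the counts were 19 (1.27%, background 1.71%) and 34 (2.27%, background 1.79%). With only 2 livers against 2, DKO lay above WT at 328 (21.9%, background 28.2%) and below at 435 (29.0%, background 29.8%). Of these 6 shares, the one for lower folds without Cpt2 was above its background and the other 5 were below.

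The absence of calls depended on which libraries were fitted. Without Cpt2 KO replicate 1, 26 regions passed for Ppara, 11 higher and 15 lower (1.73% against a background of 5.20%), and 30 for DKO against WT (2.00% against 5.08%). Without Cpt2 KO replicate 2, 8 passed for Cpt2 (0.533% against 1.07%) and 29 for DKO against WT (1.93% against 5.12%). In each of these fits the regions were called less often than stable intervals in general. Leaving out Cpt2 KO replicate 1 left only narrower smallest peaks (196 to 199 bases) among Ppara-intact livers. Leaving out Cpt2 KO replicate 2 left only wider ones (210 to 221 bases) among Cpt2-null livers. Width thus followed genotype more closely in the fits for Ppara and Cpt2, and its part was not tested. For DKO against WT, the WT and DKO libraries and their widths were the same as in the full fit. The differences were therefore unchanged (−1.08 at Rab11fip4), and only the spread estimated over the libraries could move. With all 8 libraries and smallest peak width as a covariate, the lowest adjusted p of any region was 0.218 for Ppara and 0.43 for Cpt2 (limma).

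The 4 regions with the smallest p for Ppara are described without having passed. In Rab11fip4, an effector of vesicle recycling (chr11:79665568-79667194), folds were 9.08 and 10.0 (WT), 6.70 and 7.48 (Cpt2 KO), 4.83 and 3.90 (Ppara KO) and 4.33 and 4.67 (DKO). All 4 Ppara-null livers lay below all 4 intact livers, with a difference of −0.90 ± 0.19 (SE) on the log2 scale (limma, adjusted p = 0.0765; 0.0199 to 0.402 over the alternatives). The region in Ppargc1b, the coactivator PGC-1 beta of mitochondrial and lipid genes (chr18:61336638-61339899), had 9.00 and 10.1 (WT), 10.2 and 8.80 (Cpt2 KO), 6.00 and 4.29 (Ppara KO) and 6.20 and 5.50 (DKO). Again the groups did not overlap, and the difference was −0.81 ± 0.20 (limma, adjusted p = 0.108; 0.0461 to 0.481 over the alternatives).

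In Arhgap26, a GTPase-activating protein (chr18:39044242-39045748), the order was the reverse, with folds of 4.89 and 6.07 (WT), 4.67 and 3.44 (Cpt2 KO), 7.40 and 8.07 (Ppara KO) and 7.60 and 10.0 (DKO). Its difference was 0.81 ± 0.20 (limma, adjusted p = 0.108; 0.0237 to 0.545 over the alternatives). Near Tuba3b, an alpha tubulin 8528 bases away (chr6:145606928-145607941), folds were 8.16 and 8.04 (WT), 5.67 and 6.93 (Cpt2 KO), 3.5 and 4.83 (Ppara KO) and 4.50 and 3.83 (DKO), a difference of −0.79 ± 0.20 (limma, adjusted p = 0.109; 0.0308 to 0.462 over the alternatives). The groups were apart at these 2 regions as well. Without Cpt2 KO replicate 1, the fit gave adjusted p under 0.05 at all 4.

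For Cpt2 the smallest p-values were at 4 regions inside genes. Folds in Ints7, a subunit of the Integrator complex (chr1:191620731-191621632), were 3.83 and 5.39 (WT), 9.75 and 7.15 (Cpt2 KO), 5.83 and 5.50 (Ppara KO) and 8.01 and 12.3 (DKO). Cpt2-null livers were all higher, by 0.85 ± 0.21 on the log2 scale (limma, adjusted p = 0.424; 0.0467 to 0.84 over the alternatives). In Mideas, a subunit of a histone deacetylase complex (chr12:84154647-84156780), folds were 5.0 and 4.30 (WT), 10.6 and 9.61 (Cpt2 KO), 5.33 and 7.10 (Ppara KO) and 9.44 and 7.49 (DKO), with all Cpt2-null livers higher and a difference of 0.79 ± 0.20 (limma, adjusted p = 0.424; 0.0608 to 0.84 over the alternatives).

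A region in Pard3 (chr8:127086203-127088402) went the other way, with folds of 9.00 and 8.0 (WT), 4.18 and 4.71 (Cpt2 KO), 7.86 and 9.00 (Ppara KO) and 6.29 and 5.26 (DKO). Its difference was −0.74 ± 0.19 (limma, adjusted p = 0.424; 0.0608 to 0.84 over the alternatives), and it was 1 of 8 regions of that gene. In Serpina9, a serine protease inhibitor of B cells (chr12:103995780-103997449), folds were 16.9 and 13.4 (WT), 4.40 and 7.20 (Cpt2 KO), 12.8 and 6.20 (Ppara KO) and 6.68 and 6.4 (DKO). Groups overlapped at Serpina9 through Ppara KO replicate 2, whereas the 4 libraries with the narrower smallest peaks (lowest 7.20) all lay above the other 4 (highest 6.68). The difference was −0.93 ± 0.24 (limma, adjusted p = 0.424; 0.0357 to 0.84 over the alternatives), and −0.64 with smallest peak width as a covariate.

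**Figure D5:**
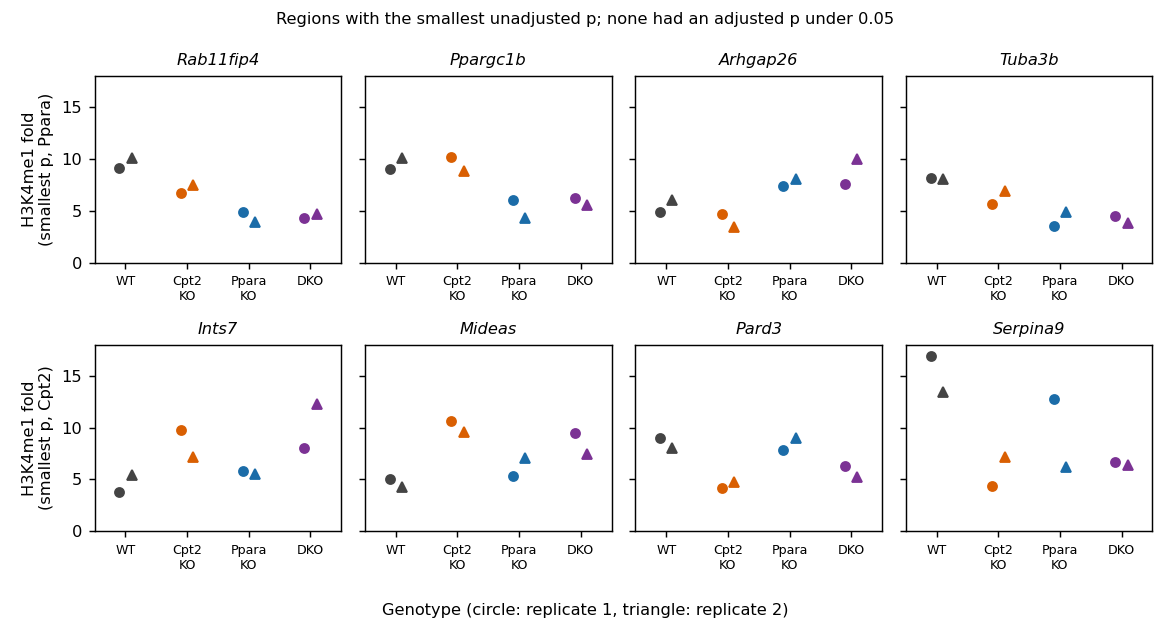
H3K4me1 fold enrichment (vertical axis, linear) in each liver by genotype (horizontal axis) at the 4 regions with the smallest p for Ppara (upper row) and for Cpt2 (lower row); circles are replicate 1 and triangles replicate 2. Ppara KO and DKO points lie on one side of WT and Cpt2 KO in the whole upper row, while in Serpina9 one Ppara KO liver (6.20) lies among the Cpt2-null livers (4.40 to 7.20); no region had an adjusted p under 0.05.

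Between DKO and WT, the smallest p was at a region 105280 bases from Akr1d1, a steroid reductase of bile acid synthesis (chr6:37679690-37680712). Folds there were 4.43 and 4.0 (WT), 7.20 and 5.0 (Cpt2 KO), 5.50 and 5.25 (Ppara KO) and 9.60 and 9.49 (DKO), so the single knockouts lay between, and the difference was 1.18 ± 0.28 (limma, adjusted p = 0.0833; 0.0201 to 0.612 over the alternatives). Near Adgrl2, an adhesion G protein-coupled receptor (chr3:149083327-149086352), folds were 11.3 and 10.6 in WT and 5.50 and 4.60 in DKO, with Cpt2 KO at 7.08 and 7.41 and Ppara KO at 8.09 and 6.20 (limma, −1.12 ± 0.28, adjusted p = 0.0852; 0.0259 to 0.713 over the alternatives). In Gstm4, a glutathione transferase (chr3:108030817-108032591), folds were 11.6 and 8.50 (WT), 6.60 and 7.67 (Cpt2 KO), 9.40 and 5.66 (Ppara KO) and 3.88 and 4.62 (DKO) (limma, −1.23 ± 0.30, adjusted p = 0.0852; 0.0254 to 0.713 over the alternatives). At Adgrl2 and Gstm4 the 4 libraries with the narrower smallest peaks all lay above the other 4. Rab11fip4 was the fourth, at −1.08 ± 0.27 (limma, adjusted p = 0.0852; 0.0284 to 0.679 over the alternatives). With the smallest peak width of each library as a covariate, the lowest adjusted p of any region for DKO against WT was 0.443 (limma), while the differences at the named regions were 1.03 at Akr1d1, −0.88 at Rab11fip4, −0.81 at Adgrl2 and −0.86 at Gstm4.

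The smallest p-values of the interaction shared 1 shape: mean levels were higher in WT and DKO than in both single knockouts. Near Lancl1, a glutathione-binding protein (chr1:66998347-67000423), folds were 7.07 and 6.83 (WT), 3.92 and 4.0 (Cpt2 KO), 5.29 and 4.64 (Ppara KO) and 6.81 and 6.49 (DKO). The interaction was 1.26 ± 0.37 (limma, adjusted p = 1.00; 0.701 to 1.00 over the alternatives). Plekhm3, Fam83f and Tanc1, a synaptic scaffold, followed with interactions of 1.41, 1.34 and 1.17 at the same adjusted p. At Tanc1 folds were 7.62 and 6.88 (WT), 4.86 and 4.57 (Cpt2 KO), 5.0 and 4.71 (Ppara KO) and 6.86 and 7.17 (DKO).

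No list of genes held a region that passed. Of the 6 regions assigned to hepatocyte transcription factors, 0 had an unadjusted p under 0.05 for Ppara and 1 was lower for Cpt2. Of the 8 assigned to developmental regulators, the counts were 0 and 1 lower, and of the 7 assigned to cholangiocyte markers, 0 and 1 higher. Over all stable intervals Ppara had 6.92% with higher and 7.01% with lower folds at that p, and Cpt2 5.06% and 4.75%, so counts of 0 or 1 in lists of this size are no result about them. Medians for Ppara were 0.05, −0.18 and −0.14 on the log2 scale, beside −0.03 over the 1501 regions. The region over the start of Acot5, a peroxisomal acyl-CoA thioesterase (chr12:84068305-84069646) had folds of 5.83 and 4.86 (WT), 7.85 and 5.14 (Cpt2 KO), 4.14 and 5.17 (Ppara KO) and 6.76 and 5.97 (DKO), with a Ppara difference of −0.10 ± 0.21 (limma, adjusted p = 0.857).

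Acetylation beside the regions was a readout the choice had not used in its levels. Of the regions, 437 (29.1%) had an H3K27ac interval within 2000 bases, whatever the number of libraries calling it. These neighbours were 603 H3K27ac intervals. Of them 115 (19.1%) were called in all 8 H3K27ac libraries, against 27.8% of all H3K27ac intervals, and only these 115 were fitted. For Ppara, 5 of the 115 rose and 1 fell (4.35% and 0.87%, background 3.19% higher, 4.15% lower), and 14 and 15 had an unadjusted p under 0.05 (12.2% and 13%, background 10.3% and 12.9%). The direction of the Ppara calls was not stable, with 2 higher and 4 lower without WT replicate 1, and 8 higher and 11 lower of 336 within 5000 bases. For Cpt2, 5 rose and 15 fell, 4.35% and 13% against backgrounds of 4.90% and 7.38%, with a median difference of −0.17 against −0.01 over all 18281 intervals tested; 10 and 31 had an unadjusted p under 0.05 (8.70% and 27%, background 13.5% and 16.6%). Without centring the libraries, the median over all intervals moved to 0.25 and that of the neighbours to 0.10. The split turned to 14 higher and 2 lower, with 3936 of all 18281 intervals called in either direction. Centring takes 1 constant from each library, so the gap between neighbours and all intervals is the same on both scales by construction. Smallest peak widths of the H3K27ac libraries were 217 to 223 bases in Cpt2-null and 198 to 210 in Cpt2-intact livers. With that width as a covariate 0 neighbours passed for Cpt2 by limma, as did 0 of all 18281 intervals. At unadjusted p under 0.05 there were 9 of the 115, and the share over all intervals was not counted in that fit. For Ppara 1 neighbour passed, beside 713 of all 18281 intervals. Width and Cpt2 state cannot be told apart in H3K27ac.

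The counts also moved with single livers, as did those over all 18281 intervals, which were 1342 for Ppara and 469 to 1528 with a library left out, and 2245 for Cpt2 and 691 to 2492. For Ppara, 6 neighbours passed in all, 6 without WT replicate 1, 2 without WT replicate 2, 1 without Cpt2 KO replicate 1, 2 without Cpt2 KO replicate 2, 1 without Ppara KO replicate 1, 0 without Ppara KO replicate 2, 0 without DKO replicate 1 and 2 without DKO replicate 2. For Cpt2, 20 passed in all, 24 without WT replicate 1, 12 without WT replicate 2, 7 without Cpt2 KO replicate 1, 10 without Cpt2 KO replicate 2, 7 and 10 without Ppara KO replicates 1 and 2, and 11 and 10 without DKO replicates 1 and 2.

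At the neighbours that changed most, H3K27ac moved and the H3K4me1 region beside it did not pass. The H3K27ac interval 1066 bases from a region near Hs1bp3 had folds of 4.14 and 6.75 (WT), 18.8 and 21.2 (Cpt2 KO), 4.0 and 9.50 (Ppara KO) and 19.2 and 20.2 (DKO). It rose in Cpt2-null livers by 1.53 ± 0.24 on the log2 scale (limma, adjusted p = 0.00472; 0.000149 to 0.656 over the alternatives, the last with the width covariate). The H3K4me1 region beside it (chr12:8352995-8353763) had folds of 5.18 and 6.50 (WT), 11.2 and 6.62 (Cpt2 KO), 3.67 and 5.91 (Ppara KO) and 5.40 and 9.09 (DKO). Its difference was 0.58 ± 0.24 (limma, adjusted p = 0.475), in the same direction but with overlapping groups.

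At an interval 146581 bases from Capza3, an actin-capping protein of the testis, H3K27ac 168 bases from a region was 16.2 and 13 (WT), 6.80 and 6.59 (Cpt2 KO), 10.1 and 14.7 (Ppara KO) and 7.75 and 10.3 (DKO), a difference of −1.05 ± 0.19 with Cpt2 loss (limma, adjusted p = 0.00756; 0.00901 to 0.53 over the alternatives). In Tbc1d16, a Rab GTPase-activating protein, the difference was −0.98 ± 0.18 (limma, adjusted p = 0.00787; 0.00881 to 0.838 over the alternatives). Folds at Tbc1d16 were 12.9 and 21.4 (WT), 8.87 and 7.57 (Cpt2 KO), 9.14 and 10.7 (Ppara KO) and 6.88 and 8.0 (DKO). With the width covariate no H3K27ac interval of the 18281 passed for Cpt2, these 3 included, while the differences were 1.47 at Hs1bp3, −1.95 at Capza3 and −0.53 at Tbc1d16. The H3K4me1 regions beside them differed by −0.30 ± 0.23 and −0.05 ± 0.20 (limma, adjusted p = 0.676 and 0.956). The tests of the 2 marks were separate, and the difference between their responses was not tested.

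With Ppara loss, H3K27ac in Fzd7, a Wnt receptor, fell, with folds of 19.5 and 28.9 (WT), 17.2 and 18.2 (Cpt2 KO), 9.80 and 10.1 (Ppara KO) and 11.7 and 19.4 (DKO) (limma, −0.77 ± 0.17, adjusted p = 0.016; 0.0123 to 0.0779 over the alternatives), with the highest DKO liver above both Cpt2 KO livers. In Susd6 it rose by 0.73 ± 0.20 (limma, adjusted p = 0.0472; 0.0365 to 0.161 over the alternatives) and near Dact2, an inhibitor of Wnt signalling, by 0.71 ± 0.19 (limma, adjusted p = 0.0412; 0.039 to 0.162 over the alternatives). At Dact2 the folds were 4.36 and 6.10 (WT), 13.9 and 10.3 (Cpt2 KO), 11.2 and 16.4 (Ppara KO) and 14.1 and 11.5 (DKO). Both Cpt2 KO livers lay above both WT livers. One Cpt2 KO liver (10.3) lay below all 4 Ppara-null livers. The other (13.9) lay above the lower Ppara KO liver (11.2) and the lower DKO liver (11.5), so the Ppara-null and Ppara-intact groups overlapped. The H3K4me1 region beside it, which holds the start of Gm34426, had 7.24 and 6.67 (WT), 3.83 and 4.50 (Cpt2 KO), 6.50 and 6.76 (Ppara KO) and 5.96 and 4.95 (DKO) (limma, 0.16 ± 0.19 for Ppara, adjusted p = 0.749). The regions beside Fzd7 and Susd6 differed by −0.00 ± 0.23 and −0.13 ± 0.20 (limma, adjusted p = 0.995 and 0.804).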

How the data were processed

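The authors deposited a peak list per library of each mark, called singly, and consensus intervals per mark as positions only; how these were merged is not given in the sources used here. Alignment with BWA, peak calling with MACS2 2.1.0 and the build mm10 are per the submitters' processing notes; duplicates and scaling are not given. In 1 H3K27ac list, that of the second Ppara KO liver, peaks are named with a different build label; its positions were used as mm10. Fold enrichment is the authors' ratio per peak, and the −log10 p and −log10 q of peaks were deposited by the authors (lowest −log10 q 5.21). The 2 pooled inputs were not analysed on their own.

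The members and lists were chosen with earlier results of these data known. The log2 fold of an interval's highest peak was centred on each library's median and fitted with limma 3.58.1 (R 4.3.3, trend) as 4 genotype means over 8 libraries, on intervals called in all 8; the test was checked on simulated data. Genes are the nearest of 21900 protein-coding bodies in RefSeq GRCm38.p6, from the interval's middle. Regions were named by rule: the 4 smallest p per contrast, the 10 highest mean folds, the 3 smallest and 3 largest SDs, the 4 widest, the 8 genes with most regions (ties kept), the 3 highest per gene list, the 3 nearest to acetylation and the 3 just outside, 6 promoters, and 3 H3K27ac neighbours each for Ppara and Cpt2. P-values measure the spread between these livers. Regions at some genes of the lists are not reported here, although the counts include them.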

Additional observations from a re-analysis of the deposited data

Results flagged for a closer look

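In 3 measures of whole libraries there was 1 library apart from the rest of its set of 4, by the gap of the end value over the range. Chance gives such a gap in about 1 of 20 sets. The median H3K4me1 fold of the regions in Ppara-null livers was 6.35 in DKO replicate 1 and 6.50 in each of the others. These folds were not centred: centred medians were −0.203 in DKO replicate 1 and −0.206 to −0.226 in the others, so it was not apart on that scale. The mean number of peaks per region in Ppara-null livers was 1.53 in Ppara KO replicate 1, the library of this set with the narrowest smallest peak (200 bases), against 1.29 to 1.32 in the others. In Cpt2-null livers it was 1.52 in Cpt2 KO replicate 2, whose smallest peak was 196 bases, against 1.29 to 1.32 in the others.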

How the results depend on the processing

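The number of regions was 1501, fell to 820 with a minimum −log10 q of 10, and was 1602 to 1705 with calls needed in 7 libraries and 2131 with H3K9ac ignored. Regions passing for Ppara were 0 and became 1 of 820 with that minimum −log10 q (lowest adjusted p 0.0477; background 0.154%) and 0 to 26 with each library left out. For Cpt2 they were 0 to 8, for DKO against WT 0 to 30 and for the interaction 0 throughout; under no centring, quantile normalization, the mean of all peaks or the width covariate none passed in any contrast by limma, with 24 to 260 at unadjusted p under 0.05 over all fits. The cause was not tested. The counts at unadjusted p under 0.05 were of 1501 regions, or of 820 with that minimum −log10 q. Outside the main fit, the share of all stable intervals at that p was not counted. Whether the regions were above or below the general rate there is therefore unknown.

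H3K27ac neighbours passing for Ppara were 6 of 115, and 3 without centring, 1 with the width covariate, 2 of 49 within 1000 bases, 19 of 336 within 5000 bases and 0 to 6 with a library left out. For Cpt2 they were 20 of 115, and 0 with the width covariate (9 at unadjusted p under 0.05), 8 of 49 within 1000 bases, 51 of 336 within 5000 bases and 7 to 24 with a library left out. Over all 18281 intervals, 1342 passed for Ppara, 1098 without centring and 713 with the width covariate. For Cpt2, 2245 passed, and 0 with the width covariate. The share at unadjusted p under 0.05 was not counted over all intervals with that covariate.

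The labels do not say whether replicate numbers pair the livers. Correlations of replicate deviations between genotypes ran from −0.49 to 0.10 in H3K4me1 and from −0.06 to 0.17 in H3K27ac, which cannot settle it. The −0.49 was between Cpt2 KO (smallest peaks of 211 and 196 bases in replicates 1 and 2) and Ppara KO (200 and 216 bases). The part of width in it was not tested. With the replicate block, 0 regions passed in any contrast, as did 0 of all 19526 stable intervals. At unadjusted p under 0.05 (limma) there were 126 for Ppara, 97 for Cpt2, 175 for DKO against WT and 46 for the interaction. Without the block these were 150, 119, 206 and 56. The share over all intervals at that p was not counted with the block. Of the H3K27ac neighbours, 9 passed for Ppara and 20 for Cpt2, beside 1490 and 2533 of all 18281 intervals.

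None of the 214 alternatives for the 16 named H3K4me1 differences reversed its direction, which does not show that these differences are robust. Of 72 for the 6 named neighbours, 48 held and 24 lost the call. The 16 H3K4me1 differences were picked by their smallest p in these same data, and some alternatives could not move them. For DKO against WT, leaving out a Cpt2 KO or Ppara KO library returned the same difference (−1.08 at Rab11fip4). The replicate block left the differences of all contrasts unchanged, and omitting the centring shifted all differences of a contrast alike. Depth in reads is unknown, and 2 livers per genotype limit precision.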
